A study of Mus musculus with 8 samples.

Results

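The 9 genes described here encode enzymes that build and break down glycogen and the transporters that carry lactate between brain cells. They were taken by gene name from the 54532 rows of the deposited count table, and each name matched 1 row. Pygb and Pygm encode glycogen phosphorylases, Gys1 and Gbe1 encode glycogen synthase and the branching enzyme, Phka1 and Phkg1 encode subunits of phosphorylase kinase, Ppp1r3c encodes a phosphatase subunit that binds glycogen, and Slc16a1 and Slc16a7 encode lactate transporters. RNA was sequenced from the cortex of 8 C57BL/6 mice that were 8 mo old, with 1 library per mouse. All 8 mice carried the PS19 transgene, which expresses 1N4R human tau with the P301S mutation under the mouse prion protein promoter. Of these, 4 mice carried no other allele (PS19), and 4 also carried 1 copy of the Adrb1-A187V knock-in mutation of the β1-adrenergic receptor (Adrb1+/m;PS19), a mutation found in people who need little sleep. Every mouse therefore carried the tau transgene, and mice without it were not analysed here. Per the study's methods, controls were littermates and males were used unless otherwise noted.

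In the brain, glycogen is held mainly in astrocytes. Noradrenaline raises cyclic AMP in astrocytes through β-adrenergic receptors, protein kinase A then activates phosphorylase kinase, and this kinase switches glycogen phosphorylase on. Glucose units released from glycogen can be turned into lactate, which leaves the cell through MCT1 (Slc16a1) and enters neurons through MCT2 (Slc16a7). Much of this control works by phosphorylation of the enzymes, which read counts do not measure.

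Libraries of PS19 mice summed to 14653222 to 21223754 counts, and those of Adrb1+/m;PS19 mice to 16865651 to 20802158. Levels between samples are given as CPM, the count relative to the library total scaled with edgeR's TMM factors. Adrb1 was counted between 528 and 872 times per PS19 mouse and between 548 and 751 times per Adrb1+/m;PS19 mouse. These counts do not separate the mutant from the normal allele, so they are no check of the genotype. Every one of 10 neuronal, 15 astrocyte and 10 oligodendrocyte markers passed the filter on low counts. The 9 striatal markers were present too, at a summed level between 977 and 1950 CPM in PS19 and between 1021 and 2186 CPM in Adrb1+/m;PS19 mice. All 7 markers of basal forebrain cholinergic neurons had an edgeR unadjusted p under 0.05 and were higher in Adrb1+/m;PS19 mice. Over all genes tested, 1.42% were higher by the same threshold. None of the 7 passed the adjustment over all genes tested. Lhx8 alone did not overlap between the genotypes, beside 2.02% of all genes tested. The summed level of the 7 markers was between 17.1 and 32.4 CPM in PS19 mice and between 34.7 and 48.8 CPM in Adrb1+/m;PS19 mice. Whether either set of cells had a part in the values of the glycogen genes was not tested.

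Pygb and Pygm are close relatives, and 1 stretch of their coding sequence is shown because its identical bases alone cannot be assigned to either gene. Per the study's methods, reads were paired-end and longer than the identical part, so a full-length read also covers bases outside it. Over 62 bases the transcripts are identical, and they differ at 7 positions, in capitals, within the 20 bases on either side. The stretch joins exons 7 and 8 in both genes. It spans chr2:150813993-150815076 for Pygb and chr19:6388339-6388827 for Pygm, both on the plus strand of GRCm38, introns included.
Pygb: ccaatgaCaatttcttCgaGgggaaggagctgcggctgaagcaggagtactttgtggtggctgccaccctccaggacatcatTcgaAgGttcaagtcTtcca
Pygm: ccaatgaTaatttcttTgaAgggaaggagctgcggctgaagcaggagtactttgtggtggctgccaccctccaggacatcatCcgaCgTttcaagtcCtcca

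Of all 50-base windows in the GENCODE transcripts of Pygb, 0.273% were also found in Pygm, and 0.405% of those of Pygm were found in Pygb. Most windows were thus particular to 1 gene of the pair, and the study's reads were longer than a window. Gbe1, Phka1, Ppp1r3c and Slc16a1 shared no such window with another gene. Slc16a7 shared 1.35% of its windows with other genes, 155 in all. Gm47862, on the other strand and with a mean of 2.25 counts, covers 179 of its 11839 exon bases. Gys1 and Phkg1 are less certain. Gys1 shared 5.79% of its windows with other genes, 25 in all, and Phkg1 11.1%, with 411 genes. Ruvbl2, on the other strand, covers 310 of the 4789 exon bases of Gys1, and Sumf2, also on the other strand, covers 630 of the 6509 exon bases of Phkg1. The strand setting of the counting is not given in the sources used here. If strand was not used, reads from these shared bases could not be told apart.

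Cyclic AMP can act on transcription through the cAMP response element, TGACGTCA. RefSeq promoters on GRCm38, each 250 bases before to 50 bases after a gene's start, were matched for 8 of the 9 genes, all but Slc16a7. The full element was in none of the 8, and in 1.79% of all 32851 promoters. Its core TGACG, read on either strand and part of every full element, was in the Pygb promoter alone among the 8, and in 20.8% of all promoters. The core begins 132 bases before the RefSeq start of Pygb. It is in capitals in the 189 bases that precede the deposited start of the gene, chr2:150786546-150786734 on the plus strand of GRCm38.
Pygb promoter: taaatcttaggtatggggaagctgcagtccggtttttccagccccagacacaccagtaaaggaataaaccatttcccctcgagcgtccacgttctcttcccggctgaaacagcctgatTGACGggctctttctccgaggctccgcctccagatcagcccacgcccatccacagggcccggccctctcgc

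Across all 8 mice, Pygb was by far the most abundant of the 9 genes. Its level per length was 42.1 ± 2.22 CPM per kilobase of exon (SD, n = 8 mice), with no mouse under 39.1. Ppp1r3c followed with 13.7 ± 1.19, Pygm with 10.2 ± 0.566 and Slc16a1 with 8.76 ± 1.01 CPM per kilobase. The range of Ppp1r3c over the mice overlapped that of Pygm, and that of Pygm overlapped that of Slc16a1. The remaining genes lay at or below 5.28 CPM per kilobase in every mouse. In descending order they were Slc16a7 (4.75 ± 0.355), Phka1 (4.03 ± 0.400), Gys1 (3.60 ± 0.336), Phkg1 (3.05 ± 0.333) and Gbe1 (2.20 ± 0.318), and each overlapped the next. The length is the union of a gene's annotated exons, so a gene with long exons that are rarely used has a low value on this scale. Slc16a7, with 11839 bases of exon, is the longest of the 9.

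**Figure D1:**
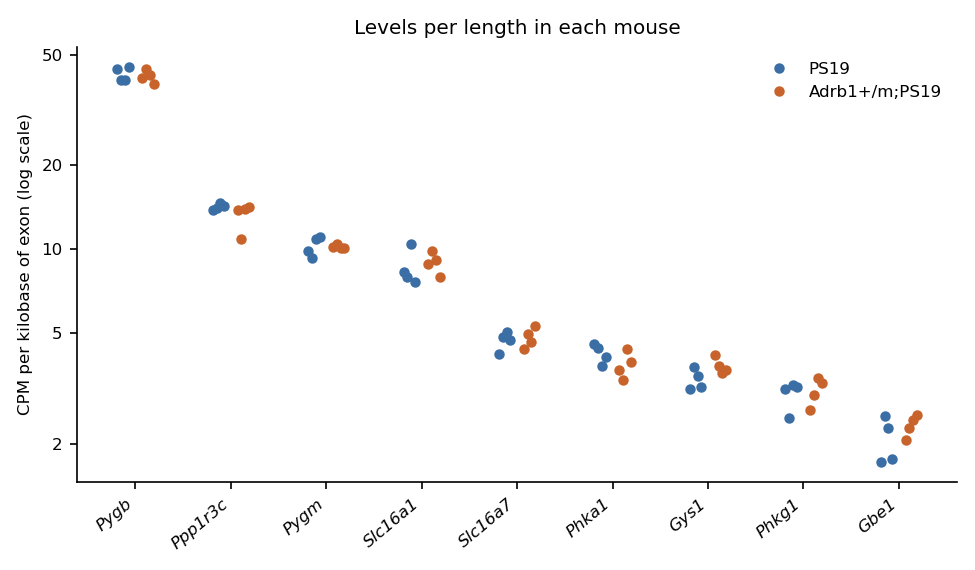
Level of each gene per length in each mouse, as CPM per kilobase of exon on a log axis, with 1 point per mouse, PS19 in blue and Adrb1+/m;PS19 in orange. Pygb stands alone at 39.1 to 45.2, and from Ppp1r3c to Slc16a1 and from Slc16a7 to Gbe1 neighbouring genes overlap.

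The members differed in how much they varied from mouse to mouse. The coefficient of variation of the CPM over the 8 mice ran from 5.28% for Pygb and 5.54% for Pygm to 11.5% for Slc16a1 and 14.5% for Gbe1, beside a median of 7.87% over the 12134 genes with a mean of at least 5 CPM. Of the 9 members, 6 lay above that median and Pygb, Pygm and Slc16a7 (7.47%) below it. As many genes lie above a median as below it, and the 12134 genes were not matched to the members for level.

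To ask whether the receptor mutation changed the expression of these genes, both genotypes entered a quasi-likelihood test in edgeR. No member passed it. None of the 9 had an unadjusted p under 0.05, where 481 of the 17195 genes tested did, or 2.80%. None passed the Benjamini-Hochberg adjustment over all genes tested either, as was true of every other gene (0.00%). DESeq2's Wald test also gave none of the 9 an unadjusted p under 0.05, beside 1.65% of the genes it tested, and 0 genes after adjustment. In every member the CPM values overlapped between the genotypes, while in 2.02% of the genes tested they did not. The fitted log2 fold change was above 0 in 5 members and below 0 in 4, from -0.13 for Phka1 to 0.17 for Gbe1. Its median absolute size was 0.06, beside 0.07 over all genes tested and 0.05 over genes with a mean of at least 5 CPM.

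**Figure D2:**
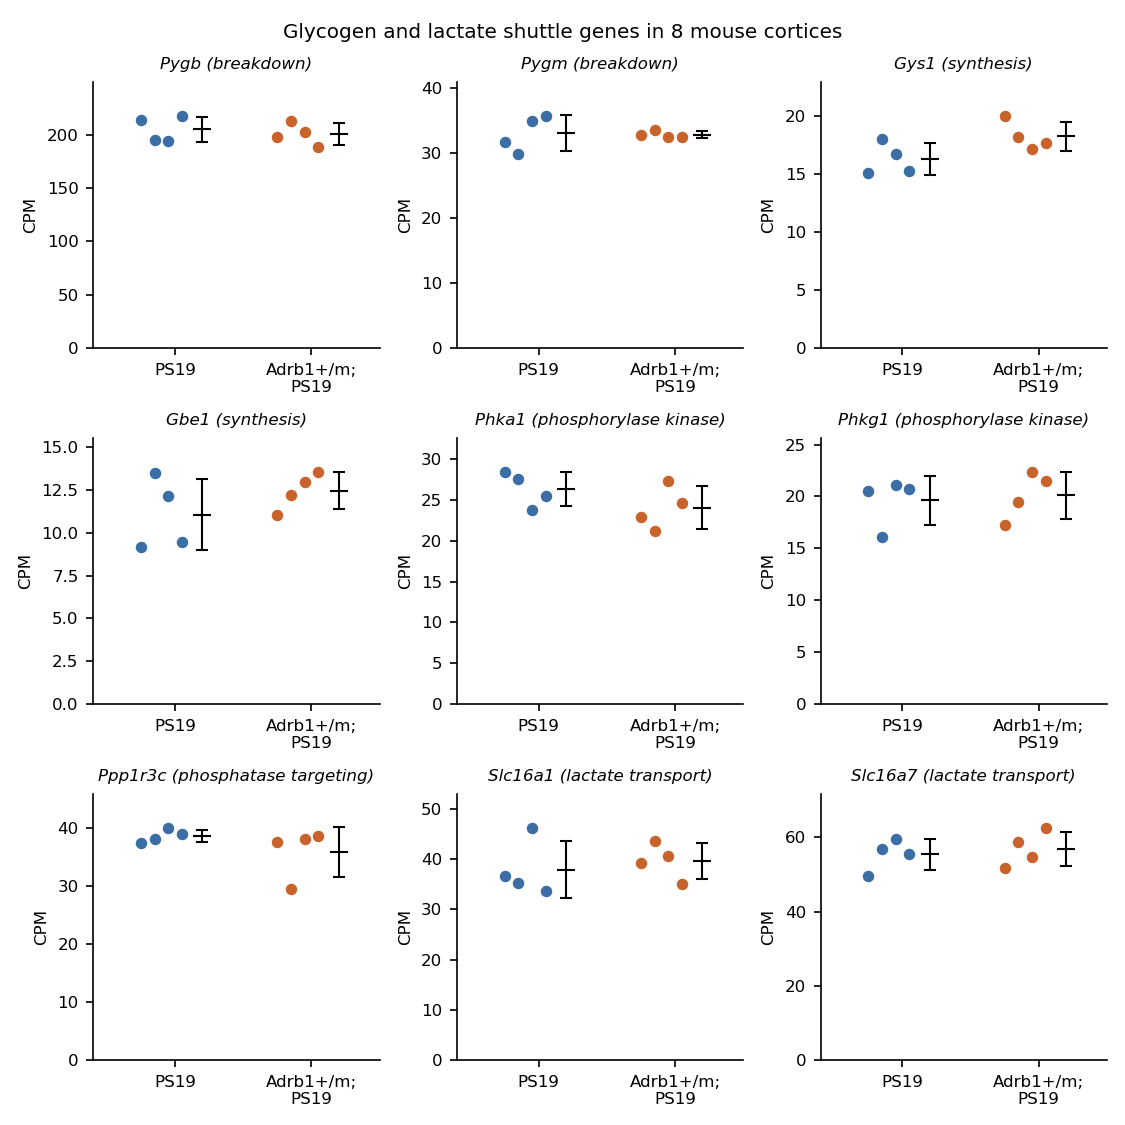
CPM of the 9 genes in each mouse, 1 panel per gene with its role in brackets and the axis from 0. Points are mice, PS19 in blue and Adrb1+/m;PS19 in orange, and the bars beside them are the mean ± SD (n = 4). The genotypes overlap in every panel, and the low orange point of Ppp1r3c is mouse m661 at 29.5 CPM.

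The 2 phosphorylases, which cut glucose units off glycogen, did not pass the test, and the levels of both overlapped between the genotypes. Pygb, the brain isoform (ENSMUSG00000033059, chromosome 2, 150786735 to 150831758, plus strand of GRCm38), was at 213, 195, 194 and 217 CPM in PS19 mice m677, m668, m665 and m659. In Adrb1+/m;PS19 mice m671, m661, m660 and m658 it was at 198, 213, 203 and 188 CPM. The high mice, m659, m677 and m661, came from both genotypes. Pygb did not pass (log2 fold change -0.03, SE 0.06, edgeR unadjusted p = 0.591), and the 95% interval of the change reached from -10.1% to 6.505%. Pygm, the muscle isoform, which astrocytes also express (ENSMUSG00000032648, chromosome 19, 6384399 to 6398459, plus strand), was at 31.7, 29.8, 34.9 and 35.6 CPM in the same order of PS19 mice. In Adrb1+/m;PS19 mice it was at 32.8, 33.5, 32.5 and 32.4 CPM, a narrow band inside the range of the PS19 mice. Pygm did not pass either (log2 fold change -0.01, SE 0.07, edgeR unadjusted p = 0.868), with an interval from -10.7% to 10.2%. Its sign turned without m665 (0.02) or m659 (0.02).

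The 2 enzymes that build glycogen had the largest fitted increases of the 9, and neither passed the test. Gys1, which adds glucose units to the growing chain (ENSMUSG00000003865, chromosome 7, 45434844 to 45456619, plus strand), was at 15.1, 18.0, 16.7 and 15.2 CPM in PS19 mice m677, m668, m665 and m659. It was at 19.98, 18.2, 17.2 and 17.7 CPM in Adrb1+/m;PS19 mice m671, m661, m660 and m658. The 3 lowest mice were PS19, and PS19 mouse m668 lay among the Adrb1+/m;PS19 mice. Mean levels were 16.3 ± 1.38 and 18.2 ± 1.22 CPM (SD, n = 4 each). That difference missed the threshold (log2 fold change 0.17, SE 0.09, edgeR unadjusted p = 0.0893), and the interval ran from -2.003% to 28.5%. With mouse m668 left out, Gys1 was higher by the unadjusted test (log2 fold change 0.22, SE 0.10, edgeR unadjusted p = 0.0405). With mouse m671 left out instead, the log2 fold change was 0.12 (edgeR unadjusted p = 0.231), the lowest of these fits. Gbe1, which adds the branches (ENSMUSG00000022707, chromosome 16, 70313949 to 70569716, plus strand), was the least abundant of the 9 and the most variable. It was at 9.19, 13.5, 12.1 and 9.46 CPM in PS19 mice and at 11.04, 12.2, 12.99 and 13.5 CPM in Adrb1+/m;PS19 mice, in the same orders. PS19 mice m677 and m659 were the 2 lowest, and m668 reached the level of the highest Adrb1+/m;PS19 mouse. Gbe1 did not pass (log2 fold change 0.17, SE 0.13, edgeR unadjusted p = 0.219), and its interval from -7.62% to 37.2% was the widest of the 9. Leaving out 1 mouse moved its log2 fold change between 0.094 (without m677) and 0.27 (without m668, edgeR unadjusted p = 0.0569).

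Phosphorylase kinase passes the signal of protein kinase A to phosphorylase. Phka1, its muscle-type regulatory α subunit (ENSMUSG00000034055, chromosome X, 102513975 to 102644246, minus strand), was at 28.4, 27.6, 23.7 and 25.5 CPM in PS19 mice m677, m668, m665 and m659. It was at 23.0, 21.3, 27.4 and 24.7 CPM in Adrb1+/m;PS19 mice m671, m661, m660 and m658. The 2 lowest mice were Adrb1+/m;PS19, but m660 was close to the highest PS19 mice. Phka1 did not pass (log2 fold change -0.13, SE 0.09, edgeR unadjusted p = 0.184), with an interval from -20.2% to 4.88%. It ranged from -0.20 without m660 (edgeR unadjusted p = 0.0559) to -0.071 without m661. Phkg1, the muscle-type catalytic γ subunit (ENSMUSG00000025537, chromosome 5, 129863421 to 129898549, minus strand), was at 20.5, 16.1, 21.1 and 20.7 CPM in PS19 mice and at 17.2, 19.5, 22.3 and 21.4 CPM in Adrb1+/m;PS19 mice. The lowest mouse was PS19 mouse m668, and the other PS19 mice lay within the range of the Adrb1+/m;PS19 mice. Phkg1 did not pass either (log2 fold change 0.03, SE 0.11, edgeR unadjusted p = 0.758), with an interval from -12.8% to 20.2%. The sign turned without mouse m668 (-0.05) or mouse m660 (-0.02).

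Ppp1r3c, also called PTG, brings protein phosphatase 1 to glycogen and so favours synthesis over breakdown (ENSMUSG00000067279, chromosome 19, 36731737 to 36736653, minus strand). It was at 37.4, 38.0, 39.9 and 38.8 CPM in PS19 mice m677, m668, m665 and m659, the tightest of the 9 genes in that genotype relative to its level. In Adrb1+/m;PS19 mice m671, m660 and m658 it was at 37.5, 38.0 and 38.5 CPM, within the range of the PS19 mice, but in mouse m661 it was at 29.5 CPM. With all mice the log2 fold change was -0.11 (SE 0.08, edgeR unadjusted p = 0.224, interval from -18.0% to 5.20%), and without mouse m661 it was -0.02.

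The lactate transporters showed the same overlap. Slc16a1, or MCT1, which is found in astrocytes, oligodendrocytes and endothelial cells (ENSMUSG00000032902, chromosome 3, 104638668 to 104658462, plus strand), was at 36.6, 35.1, 46.1 and 33.6 CPM in PS19 mice and at 39.2, 43.7, 40.5 and 35.1 CPM in Adrb1+/m;PS19 mice, in the same orders as above. Both the highest mouse, m665, and the lowest, m659, were PS19. Slc16a1 did not pass (log2 fold change 0.06, SE 0.10, edgeR unadjusted p = 0.536), with an interval from -9.87% to 21.0%. Without m665, the PS19 mouse with the most Slc16a1, the log2 fold change was 0.18 (edgeR unadjusted p = 0.0512), and without m659, the one with the least, it was 0.0083. Slc16a7, or MCT2, the neuronal importer with a high affinity for lactate (ENSMUSG00000020102, chromosome 10, 125219270 to 125389465, minus strand), was at 49.5, 57.0, 59.6 and 55.7 CPM in PS19 mice and at 51.9, 58.8, 54.7 and 62.5 CPM in Adrb1+/m;PS19 mice. PS19 mouse m677 was the lowest and Adrb1+/m;PS19 mouse m658 the highest, with the other mice mixed between them. Slc16a7 did not pass either (log2 fold change 0.04, SE 0.07, edgeR unadjusted p = 0.608), with an interval from -7.94% to 14.6%. Its sign turned without m677 (-0.01) or m658 (-0.0089). The cortex is a mixture of cells, so in none of these genes can fewer cells of a type and less RNA per cell be told apart.

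Because paired enzymes oppose or replace each other, 5 ratios of counts were compared within each mouse, which removes the depth of the library. The log2 ratio of Gys1 to Pygb, synthesis to breakdown, was -3.65 ± 0.202 in PS19 and -3.46 ± 0.120 in Adrb1+/m;PS19 mice (SD, n = 4 each). The difference was 0.20, and 2 of the 4 Adrb1+/m;PS19 mice lay above the highest PS19 mouse (exact permutation p = 0.2, 2-sided, and 0.524 adjusted over the 5 ratios). Within the PS19 mice, the ratio was -3.82 in m677 and -3.83 in m659, against -3.43 in m668 and -3.54 in m665. The log2 ratio of Pygb to Pygm was 2.63 ± 0.123 and 2.61 ± 0.0570, and that of Slc16a1 to Slc16a7 was -0.56 ± 0.181 and -0.52 ± 0.206 in PS19 and Adrb1+/m;PS19 mice. The exact permutation p was 0.714 for the phosphorylases and 0.914 for the transporters, or 0.893 and 0.914 adjusted. For Phka1 to Phka2, the muscle-type to the liver-type α subunit, the difference was -0.10 (exact permutation p = 0.314, adjusted p = 0.524). For Ldha to Ldhb, the subunits of lactate dehydrogenase, it was also -0.10 (exact permutation p = 0.257, adjusted p = 0.524). With 4 mice in each genotype the exact test cannot go below 0.0286. A ratio that reached this floor alone would not pass the adjustment over the 5 ratios, so the adjusted p-values say little. None of the 5 ratios passed before adjustment either, and the genotypes overlapped in each.

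**Figure D3:**
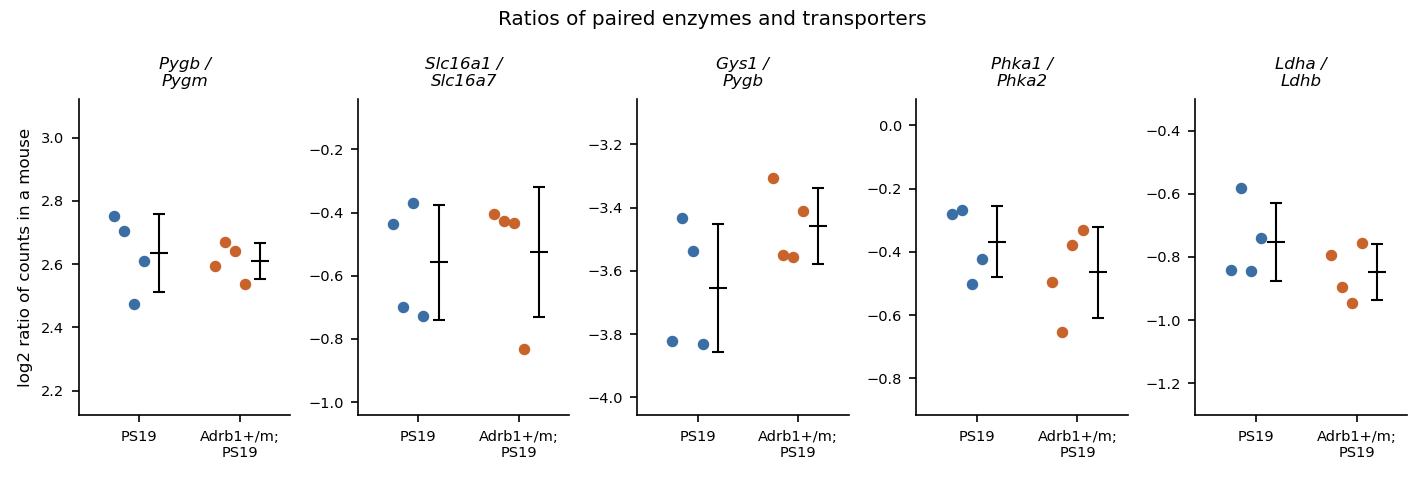
Log2 ratio of the counts of 2 genes in each mouse, with PS19 in blue, Adrb1+/m;PS19 in orange and the mean ± SD (n = 4) beside the points. Every panel spans 1 log2 unit around the mean of its 8 mice. The genotypes overlap in all 5 ratios.

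A wider list of 34 other genes of glycogen and lactate metabolism was tested in the same fit. The filter on low counts kept 32, and none had an edgeR unadjusted p under 0.05, beside 2.80% of all genes tested. With so low a share over all genes, none in a list of 32 says little about the pathway. The log2 fold changes of the 32 were above 0 in 21 and below 0 in 11, with a median of 0.04 and a range of -0.37 to 0.39. Over all genes tested, 8630 of 17195 were above 0. The filter removed Gys2, the liver synthase, with at most 8 counts in a mouse, and Ppp1r3a, the muscle counterpart of Ppp1r3c, with at most 5.

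Among the genes of breakdown, Pygl, the liver phosphorylase, was the only one of the 32 whose genotypes did not overlap. It was at 5.76, 5.73, 5.62 and 5.72 CPM in PS19 mice m677, m668, m665 and m659 and at 6.72, 6.08, 6.89 and 5.94 CPM in Adrb1+/m;PS19 mice m671, m661, m660 and m658. The counts behind these values were 83 to 127 per mouse, and Pygl did not pass edgeR's test (log2 fold change 0.17, SE 0.13, unadjusted p = 0.216). Non-overlap in 1 gene of 32 stands beside 2.02% of all genes tested.

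On the side of synthesis, 2 of the 5 tested genes had log2 fold changes above 0. Ugp2, which makes the UDP-glucose that synthase uses, was at 76.9 ± 2.74 and 82.1 ± 1.49 CPM in PS19 and Adrb1+/m;PS19 mice (SD, n = 4 each; log2 fold change 0.09, SE 0.05, edgeR unadjusted p = 0.0835). Pgm2l1, which makes glucose 1,6-bisphosphate, was the most abundant of them, at 537.8 ± 47.4 and 493.3 ± 16.8 CPM (log2 fold change -0.12, SE 0.06, edgeR unadjusted p = 0.0606). Without PS19 mouse m677 it was lower by an unadjusted test (log2 fold change -0.18, edgeR unadjusted p = 0.00235). Without PS19 mouse m668 the log2 fold change of Pgm2l1 was -0.09 (edgeR unadjusted p = 0.173). Gyg, or glycogenin, the primer of the chain, was at 22.7 ± 1.49 and 21.9 ± 1.72 CPM (log2 fold change -0.04, SE 0.08). The other 3 subunits of phosphorylase kinase lay between -0.03 and 0.04 on the log2 scale, with Phka2 the lowest. Of 8 further subunits of protein phosphatase 1, 5 that target it to glycogen and 3 that are catalytic, 5 were above 0 and 3 below. The targeting subunit Ppp1r3g was the lowest (log2 fold change -0.20, SE 0.17).

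The partners of the lactate shuttle did not pass either. Bsg, or basigin, which carries MCT1 to the membrane, was at 434 ± 14.1 CPM in PS19 and 443 ± 14.4 CPM in Adrb1+/m;PS19 mice (SD, n = 4 each; log2 fold change 0.03, SE 0.05). Ldha was at 249 ± 20.4 and 239 ± 19.8 CPM, and Ldhb at 418 ± 19.6 and 430.3 ± 24.9 CPM. Neither subunit passed (edgeR, unadjusted p = 0.439 and 0.464). All 5 further genes of lactate transport had log2 fold changes above 0, as had 8630 of the 17195 genes tested. The 5 values began at 0.0048 and had a median of 0.036, and none passed. Slc16a3, or MCT4, a lactate exporter of glycolytic cells, was at 3.78 ± 0.979 and 4.58 ± 0.983 CPM (log2 fold change 0.27, SE 0.22, edgeR unadjusted p = 0.230). Slc16a8, or MCT3, the transporter of retinal pigment and choroid plexus epithelium, had the highest value of the list (log2 fold change 0.39, SE 0.32, edgeR unadjusted p = 0.245). The summed level of 6 choroid plexus markers was between 26.1 and 372 CPM in PS19 and between 29.1 and 592 CPM in Adrb1+/m;PS19 mice, and its part in the values of Slc16a8 was not tested. Hcar1, the lactate receptor, had the lowest (log2 fold change -0.37, SE 0.37), from 11 to 38 counts per mouse.

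**Figure D4:**
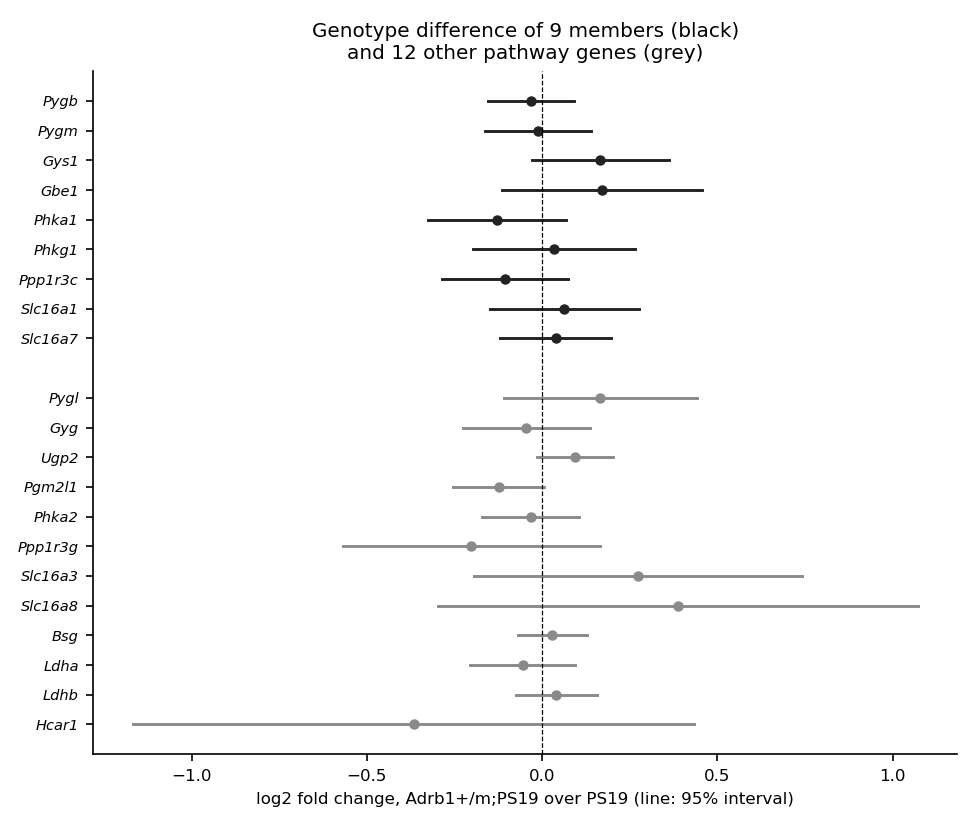
Log2 fold change of Adrb1+/m;PS19 over PS19 mice for the 9 members (black) and the 12 other pathway genes described in the text (grey), with lines for the 95% interval from edgeR's fit. All 21 intervals include 0, and that of Hcar1, from 11 to 38 counts per mouse, is the widest.

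The receptors upstream of the pathway were measured in the same fit. Of 9 adrenergic receptor genes, Adra1d was lower (log2 fold change -0.32, SE 0.11, unadjusted p = 0.0129) and Adra2b was higher (log2 fold change 0.94, SE 0.37, unadjusted p = 0.0228), beside 1.37% of all genes tested lower and 1.42% higher. Neither passed edgeR's adjustment over all genes tested, and both overlapped between the genotypes. Without PS19 mouse m659 the unadjusted p of Adra1d was 0.0524. Adra2b, at 9 to 38 counts per mouse, had an unadjusted p of 0.0501 without m668, 0.0765 without m665 and 0.11 without m658. Adrb1 (log2 fold change -0.07, SE 0.09) and Adrb3 (log2 fold change -0.31, SE 0.25), which raise cyclic AMP, did not pass. Of the α receptors, Adra1a (-0.17) and Adra1b (-0.24) had log2 fold changes below 0 and Adra2a (0.08) and Adra2c (0.18) above 0, and none of these passed. Adrb1 was at 35.9 CPM over the 8 mice and Adrb3 at 2.20 CPM.

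Over the 8 mice, members moved together and apart equally often. Of their 36 pairs, 18 had a positive and 18 a negative Pearson's r of log2 CPM, with a median of -0.04, and none passed the adjustment over the 36 pairs. Without regard to genotype, the r farthest from 0 was between Pygb and Gbe1, with r = -0.74 (exact permutation p = 0.039, adjusted p = 0.684) and Spearman's rho = -0.71 (exact permutation p = 0.0576, adjusted p = 0.828). Without the 2 mice farthest from the median of Pygb, r was -0.33. This step also narrows the range of Pygb, so it cannot tell the weight of those mice from a narrower range. The mice with most Pygb, m659, m677 and m661, had 9.46, 9.19 and 12.2 CPM of Gbe1, and the mouse with least Pygb, m658, had the most Gbe1, 13.5 CPM. The highest positive r was 0.69, between Gbe1 and Slc16a7 (exact permutation p = 0.0591, adjusted p = 0.684), with rho = 0.67 (exact permutation p = 0.0831, adjusted p = 0.828) and r = 0.60 without the 2 mice farthest from the median of Gbe1. Gys1 and Gbe1, the 2 enzymes of synthesis, had r = 0.61 (exact permutation p = 0.109, adjusted p = 0.684) and rho = 0.48 (exact permutation p = 0.243, adjusted p = 0.904), and r = 0.88 without the 2 mice farthest from the median of Gys1. With both genes centred on their genotype means, the r farthest from 0 was between Gys1 and Phkg1, with r = -0.86 (permutation p = 0.011, adjusted p = 0.397). Uncentred, their r was -0.55 (exact permutation p = 0.15, adjusted p = 0.684). Centred values were permuted across both genotypes, so a p for centred values is approximate and may be too small.

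The members were also compared with scores of 4 cell types, each the average of its marker genes' log2 CPM after every gene was centred on its own mean. None of these 36 relations passed the adjustment. The highest was that of Slc16a1 with the 10 oligodendrocyte markers, r = 0.71 (exact permutation p = 0.0553, adjusted p = 0.861) and rho = 0.69 (exact permutation p = 0.0694, adjusted p = 0.866), and r = 0.64 without the 2 mice farthest from the median of Slc16a1. Mouse m665 had the highest oligodendrocyte score, 0.24, and the most Slc16a1, while m668, m658 and m659 had the lowest scores, -0.25, -0.19 and -0.15, and the least Slc16a1. The lowest was that of Phkg1 with the 10 neuronal markers, r = -0.76 (exact permutation p = 0.0292, adjusted p = 0.861), rho = -0.86 (exact permutation p = 0.0107, adjusted p = 0.386) and r = -0.67 without the 2 mice farthest from its median. The neuronal score itself moved little, from -0.08 to 0.06.

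No gene passed with the astrocyte score, and the signs were mixed. Over the 8 mice, r with it was 0.34 for Pygb, 0.13 for Pygm, 0.30 for Ppp1r3c, -0.48 for Gys1 and -0.38 for Gbe1. It was 0.49 for Phka1, 0.58 for Phkg1, -0.51 for Slc16a1 and -0.34 for Slc16a7 (exact permutation adjusted p = 0.861 for each of the 9). In the same order, Spearman's rho was 0.55, 0.00, -0.14, -0.40 and -0.21, then 0.40, 0.50, -0.43 and -0.50, with exact permutation p-values of 0.171 or more. With both measures centred on their genotype means, Gys1 had r = -0.79 with the astrocyte score (permutation p = 0.0272, adjusted p = 0.298) and r = 0.78 with the neuronal score (permutation p = 0.0258, adjusted p = 0.298). Phkg1 with the neuronal score (r = -0.76, permutation p = 0.033) and Slc16a1 with the oligodendrocyte score (r = 0.74, permutation p = 0.0331) had the same adjusted p. The p-values of these centred relations are likewise approximate and may be too small. In each genotype the 2 mice with the higher astrocyte score had the lower Gys1. These were PS19 mice m677 and m659, with scores of 0.10 and 0.14 and Gys1 at 15.1 and 15.2 CPM, and Adrb1+/m;PS19 mice m660 and m658, with scores of 0.16 and 0.07 and Gys1 at 17.2 and 17.7 CPM. Between the genotypes, the median over the 15 astrocyte markers was a log2 fold change of 0.03. Their summed level was between 8648 and 9949 CPM in PS19 and between 8868 and 10091 CPM in Adrb1+/m;PS19 mice. Among them, Slc4a4, a bicarbonate transporter, alone had an unadjusted p under 0.05 (edgeR, 0.00203), beside 2.80% of all genes tested. It was higher in Adrb1+/m;PS19 mice (log2 fold change 0.21, SE 0.05) and did not pass the adjustment over all genes tested.

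**Figure D5:**
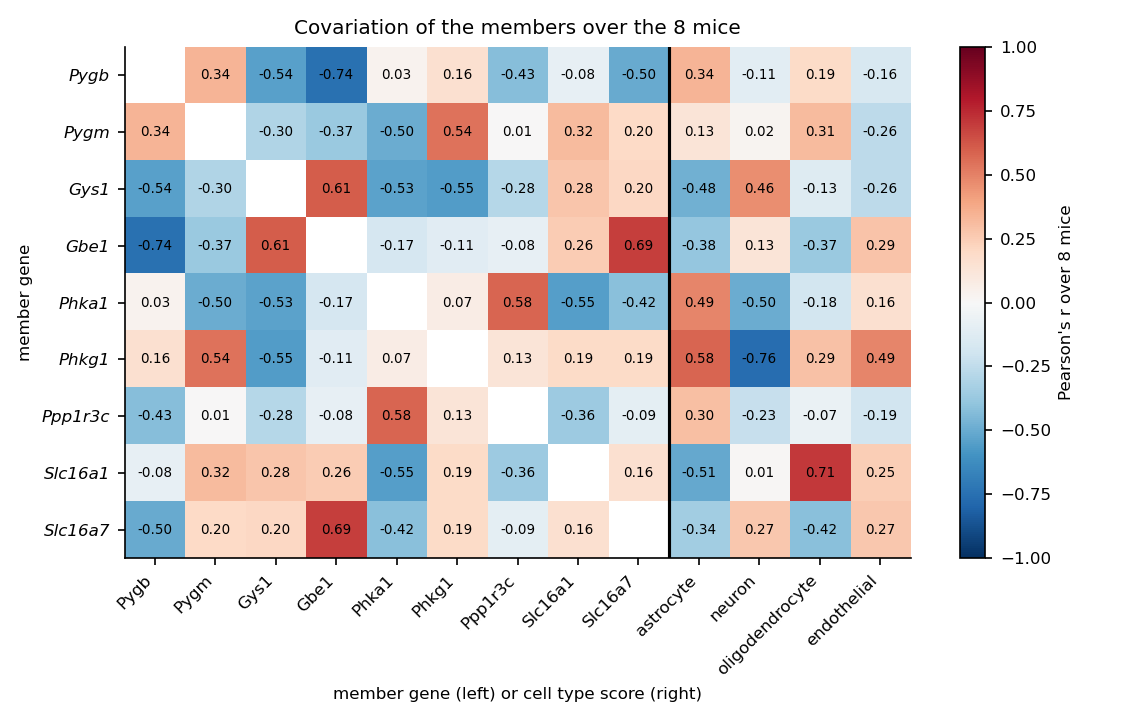
Pearson's r over the 8 mice between the log2 CPM of each pair of members (left of the line) and between each member and 4 cell type scores (right of the line). Red is positive and blue negative. Both signs are equally common among the members, and the cell with the highest r with a cell type score, 0.71, is Slc16a1 with oligodendrocytes.

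Of the 10437 other genes with a mean of at least 10 CPM, those with the pattern most like Pygb over the 8 mice were Podxl2 (r = 0.98), Slc25a39 (0.95) and Nudt9 (0.94). Those most like Gys1 were Stim1 (0.97), Pebp1 (0.96) and Phactr1 (0.96), and those most like Slc16a1 were Chchd7 (0.97), Zmat1 (0.95) and Mier1 (0.94). These are the top of a search through 10437 genes with only 8 mice, and no p is given for them. No gene of the member and pathway lists was among them.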

How the data were processed

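Per the labels and the study's methods, reads were aligned to GRCm38 with HISAT2 2.0.5 and counted per Ensembl gene with featureCounts 1.5.0-p3. The authors deposited raw counts of 8 mice without normalization. From the counts, genes kept by filterByExpr (17195) were compared with edgeR 4.0.16 (TMM, glmQLFit and glmQLFTest, 2-sided) in R 4.3.3, and p-values were adjusted by Benjamini-Hochberg across those genes. A standard error is the log2 fold change over the square root of F, and log2 CPM uses a prior count of 2 (ratios 0.5). Alternatives used DESeq2 1.42.0, limma-voom 3.58.1, a surrogate variable from sva 3.50.0, other size factors, other filters on counts or biotype, and fits without 1 of the mice. The fit was tested on simulated counts whose changed genes had larger fold changes than any member here. It does not tell how often changes of the members' size would be found.

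The members and lists were chosen with earlier results of these data known. Besides the 9 members, the text names pathway genes for their role or for the highest and lowest fold changes of at least 1 CPM, adrenergic receptors, and the 3 genes most like Pygb, Gys1 and Slc16a1. Ugp2, Pgm2l1, Slc4a4, Gad2 and Slc17a7 were named after their values were seen. One pathway gene and 1 receptor gene are counted but not reported by name here.

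Markers of microglia, mural cells, skeletal muscle, striatum and red blood cells had median log2 fold changes of 0.0020, -0.03, 0.12, 0.34 and 0.05 and those of endothelial cells 0.0029. Neurons had -0.04, oligodendrocytes -0.02 and choroid plexus 0.49. Of the 10 neuronal markers, 2 had an edgeR unadjusted p under 0.05 (Gad2 higher, Slc17a7 lower), beside 2.80% of all genes tested. Neither passed the adjustment over all genes tested, and Slc17a7 overlapped between the genotypes. The deposited gene length column, in bases, gave levels per length. Each library came from its own mouse, and p-values measure the spread between these mice.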

Additional observations from a re-analysis of the deposited data

Results flagged for a closer look

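In 132 groups of 4 mice, 4 had a mouse whose gap to its nearest neighbour was over 0.829 of the group's range, where chance gives about 1 in 20. Ppp1r3c was at 29.5 CPM in Adrb1+/m;PS19 mouse m661, against 37.5 to 38.5 CPM in the other 3. In the same mouse Phka1 was at its lowest, 21.3 CPM, and the microglial score was the lowest of the 8 mice, -0.40. Phkg1 was at 16.1 CPM in PS19 mouse m668, against 20.5 to 21.1 CPM in the other PS19 mice. Ppp1r3f, a further phosphatase subunit that targets glycogen, was at 7.19 CPM in Adrb1+/m;PS19 mouse m658, against 9.07 to 9.30 CPM in the others. The log2 ratio of Slc16a1 to Slc16a7 was -0.83 in the same mouse m658, against -0.43 to -0.40 in the other Adrb1+/m;PS19 mice. Mouse m658 had the most Slc16a7 of the 8 mice and a choroid plexus score of 2.08, the highest of the 8. The causes were not tested.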

How the results depend on the processing

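No member had an unadjusted p under 0.05 in 14 of the 15 alternatives, and the exception was Gys1 without PS19 mouse m668, so the count ran from 0 to 1 over the left-out mice. The number of genes called was 1366 with no filter beyond 1 count and 431 to 674 with a mouse left out, beside 481. Of the wider pathway, 1 gene was called with no filter beyond 1 count, 1 with 1 surrogate variable and 0 to 1 with a mouse left out. In each case it was Pgm2l1, a glucose-bisphosphate synthase. With all mice its log2 fold change was -0.12 (edgeR unadjusted p = 0.0606), and the unadjusted p was 0.00235 without m677 and 0.173 without m668. With a mouse left out, the log2 fold change crossed 0 for Pygm (-0.056 to 0.025, above 0 without m665 or m659), Phkg1 (-0.047 to 0.099, below 0 without m668 or m660) and Slc16a7 (-0.010 to 0.079, below 0 without m677 or m658), and so did the differences of the log2 ratios of Pygb to Pygm (-0.078 to 0.014, above 0 without m677) and of Slc16a1 to Slc16a7 (-0.023 to 0.14, below 0 without m668, m659 or m671). The other 6 members kept their direction in all 15 alternatives. No paired analysis was possible because each mouse has a number of its own that ties it to no mouse of the other genotype. Gbe1, with 150 to 257 counts per mouse, had the widest interval of the members.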
